A study of Mus musculus with 12 samples.

Results

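The genes described here are the enzymes that write and copy DNA methylation in mouse embryonic stem cells (ESCs) and the factors that guide them. The set was fixed by name as Dnmt1, Dnmt3a, Dnmt3b, Dnmt3l, Uhrf1, Uhrf2 and Hells, and all 7 were found among the 26061 genes of the deposited expression table. All 7 passed the filter on low values that left 14185 genes for testing.

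Cytosine methylation is set up by the de novo enzymes DNMT3A and DNMT3B, and DNMT3L, which has no catalytic activity of its own, binds and stimulates them. At each cell division DNMT1 copies the pattern to the new strand, after UHRF1 has recognised half-methylated sites and brought it there. ESCs in serum carry a highly methylated genome, whereas the genome of ESCs in 2i is hypomethylated.

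The cells were Tet2 KO mouse ESCs into which a PiggyBac transposon had stably placed a construct for WT TET2 or for a catalytic mutant of the enzyme (H1304Y, D1306A). TET2 oxidises 5-methylcytosine. All 12 libraries came from cells infected with an shRNA against Setdb1, an H3K9 methyltransferase, so each value was measured after SETDB1 depletion, and libraries without it were not analysed here. Puromycin (1 µg/ml) was added 48 h after infection, and RNA came from cells that had been under it for 3 days. They grew without feeders in serum with LIF (called primed) or in 2i, in which LIF is combined with the MEK inhibitor PD0325901 and the GSK3 inhibitor CHIR99021 (called naïve). Each combination of rescue line and medium had 3 replicates, labelled 1 to 3. Poly(A) RNA was sequenced without strand information, to a depth of 8066662 to 21335933 gene reads per library. Each rescue is a stable line, and whether the replicates came from separate cultures is not stated, so p-values measure the spread between these libraries.

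Markers fixed for ESCs were abundant in every library. The 5 shared pluripotency genes summed to 1593 and 1657 RPM (reads scaled to the total of gene reads) in naïve ESCs with WT and mutant TET2, and to 2477 and 2490 in primed ESCs, with Pou5f1 as the most abundant. The 9 naïve pluripotency genes in the table summed to 2870 and 2741 RPM in naïve ESCs and to 2480 and 2377 in primed ESCs. Nanog led them, at 1596 and 1592 RPM in naïve and 1112.5 and 1178.9 in primed ESCs. Over both lines, 4 of the 9 were called higher and 2 lower in naïve ESCs. Of all tested genes, 26.4% were higher and 25.4% lower. Fibroblast or feeder genes summed to 1.35 to 5.71 RPM in the group means, and Col1a2, Col3a1 and Dcn had no read in any library. The epithelial and trophoblast list differed between the media. It summed to 43.1 and 27.5 RPM in primed ESCs with WT and mutant TET2, and to 3.41 and 4.13 in naïve ESCs. Its most abundant gene was Krt18 in primed ESCs. Gata3 had 50 to 267 reads in the primed libraries and none in any naïve library, while Cdx2 and Elf5 did not exceed 16 and 8 reads in any library. Formative and epiblast genes summed to 56.4 and 64.5 RPM in primed and to 38.2 and 30.3 in naïve ESCs, where their most abundant gene was Lef1. Neuroectoderm genes, of which 2 of 3 were in the table, summed to 67.0 to 84.4, with Nes or Pax6 as the most abundant. Primitive endoderm genes summed to 4.48 to 8.34 and streak and mesoderm genes to 7.34 to 13.1 RPM in the group means. Transcripts of the depleted and the rescued gene also differed between media. The naïve minus primed difference was -0.44 for Setdb1 and -1.71 for Tet2 on the log2 scale (limma adjusted p = 0.0472 and 1.94e-05). The Setdb1 call was lost in 9 of the 12 fits that left out a library, with a limma adjusted p of up to 0.117, the exceptions being those without replicate 3 of either naïve group or mutant TET2 primed replicate 1. It was also lost without a filter on low values (0.0599). The Tet2 call was lost in none of the 12. The part of these cell types and transcripts in the medium differences given below was not tested. In bulk RNA, fewer cells with a transcript and less transcript per cell cannot be told apart.

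The library of mutant TET2 primed replicate 3 lay farthest from its group mean, with a root mean square deviation of 0.31 on the log2 scale over the tested genes, against 0.15 to 0.28 in the other libraries. It was the lowest of the primed libraries for Dnmt1, Dnmt3a, Dnmt3b, Dnmt3l and Uhrf1 and the highest for Hells and Uhrf2. For several results where it changed a call, a direction or a value by more than 1.5 times, the value without it is also given. These are fitted differences of the members and counts and medians of gene lists. For Setdb1 between media the difference without it was -0.33 (limma adjusted p = 0.114).

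Upstream sequence is shown for the 3 de novo genes, which were the members that differed between media, and for Uhrf1, which did not pass the test. The windows are the 250 bases before a RefSeq transcript start (sequence table of build GRCm38.p6), and each matched mm9 exactly once. Only windows outside annotated exons are printed. Capitals mark the letters of motifs searched on both strands, and adjoining motifs run together. They were the GC box GGGCGG, which SP1-type factors bind, the box with the letters CCAAT, and the TATA box in the form TATAAA. The E-box was searched as CACGTG. E2F-type motifs were searched in the form TTTGGCGC, in the related form TTTCCCGC and in the further form TTTCGCGC.

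Dnmt3l, chr10:77512337-77512586, plus strand: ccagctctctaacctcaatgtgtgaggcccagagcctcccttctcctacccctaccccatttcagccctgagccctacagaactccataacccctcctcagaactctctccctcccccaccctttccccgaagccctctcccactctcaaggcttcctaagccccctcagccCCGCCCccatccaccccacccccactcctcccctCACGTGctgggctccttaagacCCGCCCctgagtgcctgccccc
Dnmt3b, chr2:153474935-153475184, plus strand: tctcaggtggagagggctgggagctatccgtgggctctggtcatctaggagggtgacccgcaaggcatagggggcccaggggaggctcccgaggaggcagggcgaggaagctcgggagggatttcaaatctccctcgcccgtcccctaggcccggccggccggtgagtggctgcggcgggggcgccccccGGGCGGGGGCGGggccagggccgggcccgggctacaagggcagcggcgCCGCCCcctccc
Dnmt3a, chr12:3806730-3806979, plus strand: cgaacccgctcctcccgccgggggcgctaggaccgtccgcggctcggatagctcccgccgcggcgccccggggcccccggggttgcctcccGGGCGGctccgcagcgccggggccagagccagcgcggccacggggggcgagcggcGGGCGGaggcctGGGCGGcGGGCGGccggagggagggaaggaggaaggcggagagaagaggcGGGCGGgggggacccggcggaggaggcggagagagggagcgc
Uhrf1, chr17:56443486-56443735, plus strand: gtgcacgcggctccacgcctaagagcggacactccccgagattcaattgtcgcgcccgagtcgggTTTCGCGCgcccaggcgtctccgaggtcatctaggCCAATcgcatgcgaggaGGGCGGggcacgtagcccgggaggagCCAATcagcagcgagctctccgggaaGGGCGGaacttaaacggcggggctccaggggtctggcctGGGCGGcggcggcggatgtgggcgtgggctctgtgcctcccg

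The windows of the de novo genes differed in CpG content. The printed Dnmt3a window held 38 CpGs and that of Dnmt3b 21, against 4 in the printed Dnmt3l window, where the median over 32851 windows of the RefSeq table was 6. Of all windows, 98.1% had fewer CpGs than that of Dnmt3a, 83.7% fewer than that of Dnmt3b and 37.8% fewer than that of Dnmt3l. Dnmt3a has 3 annotated RefSeq starts with 38, 40 and 15 CpGs before them, so the last of these had fewer than the single Dnmt3b window. Dnmt3l also has 3 starts, with 5, 4 and 3 CpGs. Which start was used in these cells was not measured. The printed Uhrf1 window held 30 CpGs, and 94.1% of all windows had fewer. In the printed windows GGGCGG occurred 5 times for Dnmt3a, 3 times each for Dnmt3b and Uhrf1, and 2 times for Dnmt3l. Of all windows, 32.7% held it. CACGTG was found in the printed Dnmt3l window, in a Dnmt3a window that overlaps its annotated exons, and in 6.02% of all windows. The E2F-type letters TTTCGCGC, present in 0.256% of all windows, were found before Uhrf1 and in a Dnmt1 window that overlaps its annotated exons, and TTTCCCGC, present in 0.895%, was found before Hells in a window that also overlaps exons. None of the E2F-type forms was found before Dnmt3a, Dnmt3b or Dnmt3l. CCAAT, held by 33.8% of all windows, was found before Dnmt1 and Uhrf1 only, and TATAAA, held by 12.4%, before no member. Such matches describe the letters and do not show binding.

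The comparison of media asks which parts of the methylation machinery differ between naïve and primed ESCs. In these lines the de novo genes were lower in naïve ESCs and the maintenance genes did not pass the test. Over both rescue lines, Dnmt3l was 36.1-fold lower, Dnmt3b 5.03-fold lower and Dnmt3a 2.15-fold lower in naïve ESCs. Thus 3 of the 7 genes were lower and 0 were higher at an adjusted p under 0.05 (limma, all 12 libraries in one fit, Benjamini-Hochberg over all tested genes). The media differed widely, with 25.4% of all tested genes lower and 26.4% higher by the same rule. By size of the difference, the de novo genes were near the lower end. Of the 14185 genes tested, 1 had a lower difference than Dnmt3l, 64 had a lower one than Dnmt3b and 581 a lower one than Dnmt3a. Leaving out mutant TET2 primed replicate 3 gave the same 3 calls and added Uhrf2, as given below.

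**Figure D1:**
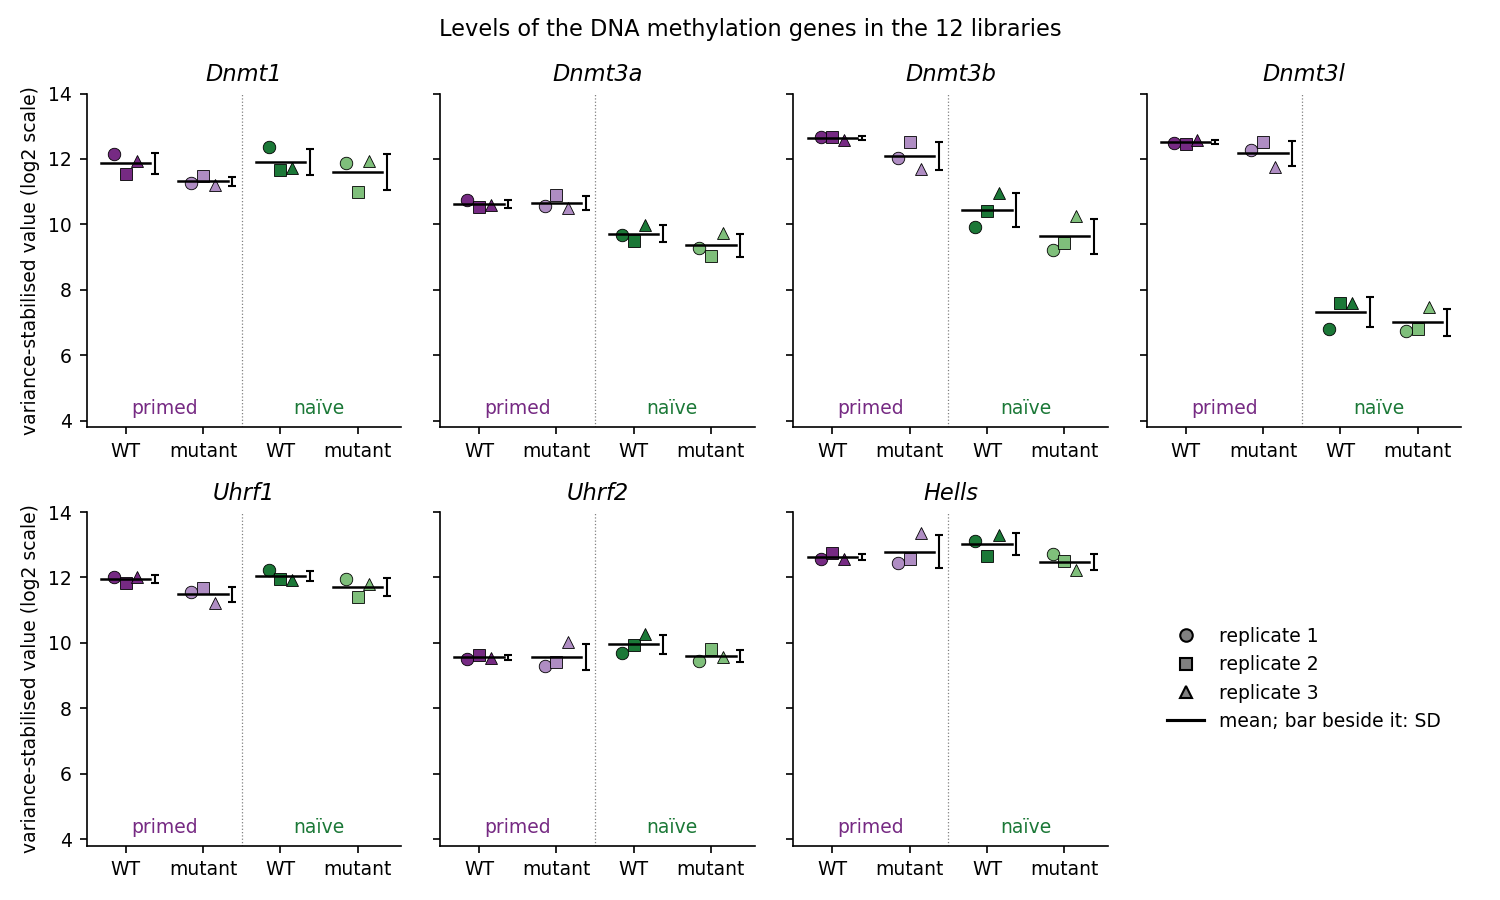
Variance-stabilised value (log2 scale, y axis) of the 7 genes in each of the 12 libraries, by medium and rescue line. Symbols mark the replicates, lines the group means and bars the SD (n = 3 per group). For Dnmt3l, Dnmt3b and Dnmt3a the naïve libraries all lie below the primed ones, and for Dnmt1, Uhrf1, Uhrf2 and Hells the media overlap.

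Dnmt3l encodes the stimulating cofactor of the de novo enzymes. In mm9 it covers chromosome 10 from 77504692 to 77526367 (plus strand). In primed ESCs it had 3848, 4685 and 11482 reads with WT TET2 and 3550, 5381 and 3205 with mutant TET2. In naïve ESCs it had 73, 169 and 160 reads with WT TET2 and 95, 79 and 262 with mutant TET2. The deeper libraries account for part of the spread in raw reads, and after scaling the primed WT libraries were nearly equal. On the deposited scale the values were 12.51 ± 0.06 and 12.17 ± 0.39 in primed and 7.32 ± 0.45 and 7.0 ± 0.40 in naïve ESCs, for WT and mutant TET2 (mean ± SD, n = 3 each). The highest naïve library, at 7.59, was more than 4 log2 units below the lowest primed library, at 11.74. The difference was -5.18 over both lines (standard error 0.17, 95% interval -5.54 to -4.81, limma adjusted p = 3.14e-12). It was -5.18 with WT and -5.17 with mutant TET2 (limma adjusted p = 6.12e-10 and 8.62e-10). Because the variance-stabilised scale compresses low values, the difference in mean normalised reads was larger, at 41.9-fold with WT and 44.5-fold with mutant TET2. The exons of Dnmt3l overlap those of Aire, on the opposite strand, over 67 bp. Aire had at most 3 reads in a naïve library and 35 to 252 in a primed one, and reads from the overlap cannot be assigned to a strand.

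Dnmt3b, the de novo enzyme most abundant in the early embryo, lies on chromosome 2, positions 153475186 to 153513466 (plus strand). In primed ESCs its values were 12.67, 12.67 and 12.57 with WT TET2 and 12.02, 12.53 and 11.70 with mutant TET2. In naïve ESCs they were 9.91, 10.41 and 10.95 with WT TET2 and 9.22, 9.42 and 10.25 with mutant TET2. Replicate 3 was the highest naïve library in both lines, and no naïve library reached a primed one. The difference was -2.33 over both lines (standard error 0.19, 95% interval -2.74 to -1.92, limma adjusted p = 6.85e-08). By line it was -2.21 with WT TET2 (limma adjusted p = 1.55e-05) and -2.45 with mutant TET2 (limma adjusted p = 6.16e-06). It had 606 to 2076 reads in the naïve libraries. Next to Dnmt3b lies its near copy Dnmt3c, which GENCODE M1 lists as Gm14490 and labels a pseudogene (positions 153522388 to 153555641). Dnmt3c had no row of its own in the table, and reads shared between the 2 may count for either.

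Dnmt3a, the other de novo enzyme, lies on chromosome 12, positions 3806007 to 3914443 (plus strand). Its values were 10.75, 10.53 and 10.59 in primed ESCs with WT TET2 and 10.57, 10.89 and 10.51 with mutant TET2. In naïve ESCs they were 9.67, 9.49 and 9.99 with WT TET2 and 9.28, 9.04 and 9.75 with mutant TET2. The groups of 6 did not overlap, although the gap was only from 9.99 to 10.51. The difference was -1.10 over both lines (standard error 0.13, 95% interval -1.39 to -0.82, limma adjusted p = 4.58e-06). It was -0.91 with WT TET2 and -1.30 with mutant TET2 (limma adjusted p = 0.00153 and 7.27e-05).

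All 6 naïve libraries lay below all 6 primed libraries for each of these 3 genes, which was also the case for 12.1% of all tested genes. An exact two-sided permutation test that reassigned the medium within each line gave p = 0.005 for each, the smallest that this design allows. Within a single line of 3 against 3 libraries the exact permutation p was 0.1, also the smallest possible. By line, the same 3 genes were called lower with WT TET2, where 17.3% of tested genes were lower and 18.6% higher, and with mutant TET2, where 16.9% were lower and 18.3% higher. The naïve libraries lay below the primed ones without overlap for these 3 genes in each line, against 24.5% of tested genes with WT and 21.2% with mutant TET2. All 3 genes were called lower under every alternative run, 21 over both lines and 22 within each line. Within a line, the alternatives that left out a library of the other line changed only the estimate of spread. The lowest and highest differences over these alternatives were -5.46 and -5.05 for Dnmt3l, -2.49 and -2.20 for Dnmt3b, and -1.20 and -1.02 for Dnmt3a, over both lines.

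No maintenance gene passed the test between media when all libraries were used. Dnmt1 lies on chromosome 9, positions 20711650 to 20757317 (minus strand). Its values were 12.16, 11.53 and 11.93 in primed ESCs with WT TET2 and 11.25, 11.47 and 11.21 with mutant TET2. In naïve ESCs they were 12.35, 11.66 and 11.71 with WT TET2 and 11.87, 10.98 and 11.95 with mutant TET2. The media overlapped fully, and the single lowest library was naïve (mutant TET2, replicate 2). The naïve minus primed difference was 0.16 over both lines (95% interval -0.21 to 0.53, limma adjusted p = 0.463, 0.05 to 0.32 with single libraries left out), and the whole interval lay above the fall of Dnmt3a.

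Uhrf1, the adaptor that recruits DNMT1, lies on chromosome 17, positions 56442744 to 56462909 (plus strand). Its values ranged from 11.23 to 12.03 in the primed and from 11.41 to 12.21 in the naïve libraries. The difference was 0.16 (95% interval -0.10 to 0.41, limma adjusted p = 0.289), and 0.09 without mutant TET2 primed replicate 3. With mutant TET2 alone it was 0.23, and 0.10 without that replicate. The intervals for Dnmt1 and Uhrf1 thus both include 0 and a small rise or fall.

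Uhrf2, a paralogue of Uhrf1 that does not replace it in maintenance, lies on chromosome 19, positions 30105003 to 30168212 (plus strand). Its values were 9.50, 9.64 and 9.54 in primed and 9.68, 9.94 and 10.26 in naïve ESCs with WT TET2, which did not overlap. With mutant TET2 they were 9.30, 9.40 and 10.02 in primed and 9.45, 9.81 and 9.56 in naïve ESCs, and these overlapped because primed replicate 3 was the highest. The difference was 0.22 over both lines (95% interval -0.08 to 0.51, limma adjusted p = 0.208) and did not pass the test. Without mutant TET2 primed replicate 3 it was 0.33 and passed (limma adjusted p = 0.0292), the single alternative of 21 that gave a call. With WT TET2 the difference was 0.40 (limma adjusted p = 0.122), with 3 of 3 naïve libraries above all primed ones, as for 25.5% of tested genes. With mutant TET2 it was 0.03 (limma adjusted p = 0.924), and -0.11 to 0.25 with single libraries left out.

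Hells, the SNF2-type remodeller LSH that opens chromatin for DNA methylation, lies on the same chromosome, positions 39005405 to 39045541 (plus strand). It had 12.58, 12.74 and 12.58 in primed and 13.10, 12.66 and 13.30 in naïve ESCs with WT TET2. With mutant TET2 it had 12.43, 12.58 and 13.36 in primed and 12.71, 12.51 and 12.23 in naïve ESCs. The highest value of all 12 libraries was thus that of mutant TET2 primed replicate 3. Over both lines the difference was 0.04 (95% interval -0.29 to 0.38, limma adjusted p = 0.842), and 0.19 without that replicate (limma adjusted p = 0.241). With other single libraries left out the difference fell to as low as -0.05. It was 0.39 with WT TET2 and -0.31 with mutant TET2 (limma adjusted p = 0.188 and 0.312), and without that replicate the latter was -0.02.

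Levels can be compared between genes only per length, here as RPKM, the RPM divided by the kilobases of merged exon. In primed ESCs with WT TET2 the order was Dnmt3l (167), Dnmt3b (106), Uhrf1 (79.3), Hells (75.3), Dnmt1 (61.6), Dnmt3a (8.0) and Uhrf2 (7.26), as group means. The neighbours Uhrf1 and Hells, Hells and Dnmt1, and Dnmt3a and Uhrf2 overlapped between libraries, and the other neighbours did not. In naïve ESCs with WT TET2 the order was Hells (96.8), Uhrf1 (81.6), Dnmt1 (61.8), Dnmt3b (22.7), Uhrf2 (9.43), Dnmt3a (4.09) and Dnmt3l (3.82). The neighbours Hells and Uhrf1, Uhrf1 and Dnmt1, and Dnmt3a and Dnmt3l overlapped between libraries, and the other neighbours did not. Dnmt3l thus went from the first to the last place. With mutant TET2, Dnmt3l was also first in primed ESCs, at 131, although its range overlapped that of Hells (85.3), and last in naïve ESCs, at 2.98. The place of Dnmt3a and Uhrf2 depended on the length used. With the longest coding transcript, Uhrf2 exceeded Dnmt3a in primed ESCs with WT TET2, at 17.6 against 13.8, without overlap.

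Among the 4 Dnmt genes, Dnmt3l took 48.6% ± 2.4 and 51.9% ± 2.8 of the summed reads per kilobase in primed ESCs with WT and mutant TET2, and 4.30% ± 1.79 and 4.27% ± 1.07 in naïve ESCs (SD, n = 3 each). Dnmt1 went the other way, with 17.9% ± 3.1 and 16.3% ± 2.6 in primed and 66.0% ± 12 and 72.0% ± 7.2 in naïve ESCs. The level of Dnmt1 itself was 61.6 and 39.9 RPKM in primed and 61.8 and 51.2 in naïve ESCs. Dnmt3b took 31.1% and 28.6% in primed and 25.2% and 19.0% in naïve ESCs. Dnmt3a had the smallest share in primed ESCs, at 2.34% and 3.24%, and 4.46% and 4.67% in naïve ESCs. With the longest coding transcript as the length, the naïve shares of Dnmt3a were 6.91% and 7.32% and those of Dnmt3l 6.33% and 6.37%, while Dnmt3l took 57.6% and 60.5% in primed ESCs. Within single libraries, Dnmt3b exceeded Dnmt3a per length by 13.3-fold and 8.84-fold in primed and by 5.39-fold and 3.96-fold in naïve ESCs (geometric means of 3, WT and mutant TET2). Dnmt3l exceeded Dnmt3a by 20.8-fold and 16.1-fold in primed ESCs, and the ratio was 0.906 and 0.897 in naïve ESCs. The ratio of Uhrf1 to Dnmt1 stayed between 1.30 and 1.40 in the 4 groups, and with the longest coding transcript between 1.55 and 1.66.

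**Figure D2:**
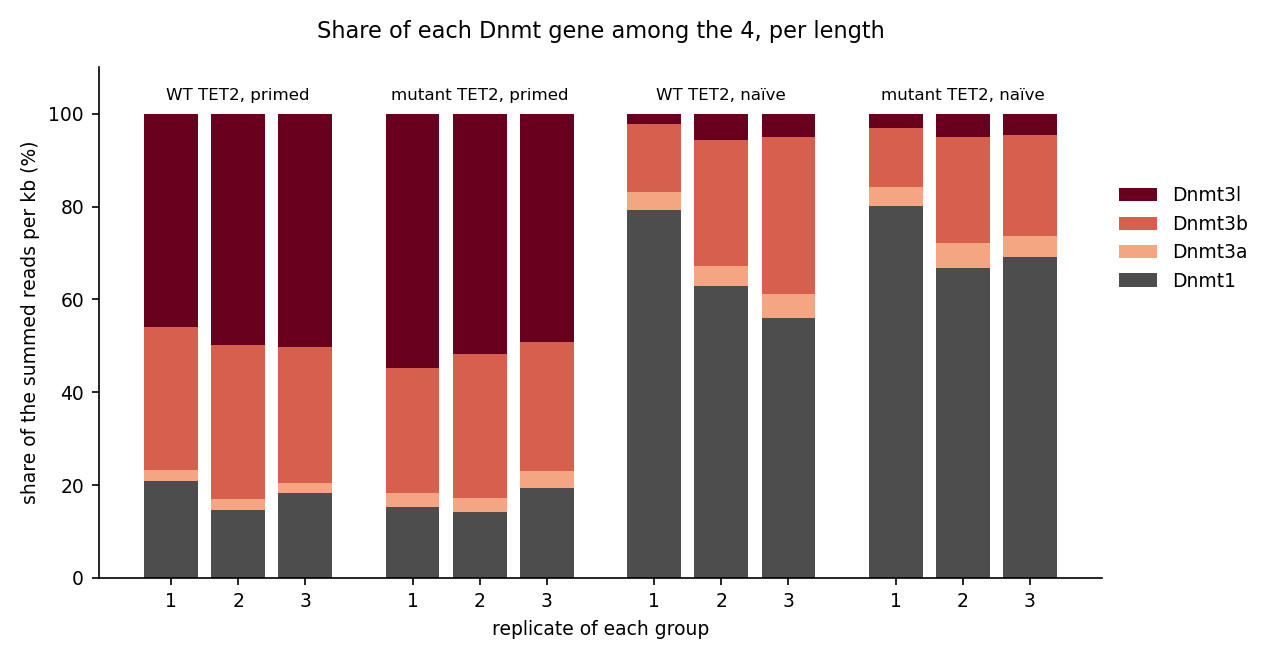
Share of each Dnmt gene in the summed reads per kilobase of the 4 Dnmt genes (y axis, %), as a stacked bar for each library (x axis, replicates 1 to 3 of each group). Dnmt3l takes 45.9% to 54.7% in the primed libraries and 2.29% to 5.71% in the naïve ones, where Dnmt1 takes 56.0% to 80.2%.

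The comparison of rescue lines asks whether these genes differed between the lines with WT and catalytic mutant TET2 after SETDB1 depletion. Catalytic activity, the Tet2 transcript level given next and other traits of the stable lines cannot be told apart. The Tet2 transcript itself, which includes reads from the construct, was higher with WT than with mutant TET2, by 2.16 in naïve and 1.84 in primed ESCs on the log2 scale (limma adjusted p = 0.0154 and 0.0297). With single libraries left out the naïve call was lost in 3 of 12 fits (limma adjusted p of up to 0.132). These were the fits without naïve WT TET2 replicate 3 or naïve mutant TET2 replicate 1 or 2. It was also lost with only the naïve libraries in the fit (limma adjusted p = 0.0526). The naïve difference itself stayed between 1.79 and 2.57 in the 12 fits that left out a library. With a block for replicate numbers its limma adjusted p was 2.99e-06. The primed call was lost in 5 of 12, those without a primed WT TET2 library or without primed mutant TET2 replicate 1 or 2 (limma adjusted p of up to 0.151). The primed difference itself stayed between 1.59 and 1.98 in these fits. With only the primed libraries in the fit the call was kept (limma adjusted p = 0.00498). Leaving out a library of the other medium left the fitted difference as it was and changed only the estimate of spread. Setdb1 did not pass the test between lines (limma adjusted p = 0.857 in naïve and 0.788 in primed ESCs).

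None of the 7 genes differed between lines at an adjusted p under 0.05 in either medium. Few genes did, with 0.0987% of those tested in naïve and 0.254% in primed ESCs. In naïve ESCs that was 13 genes higher and 1 lower, and 23 higher and 13 lower with a block for replicate numbers, the members again not among them. In primed ESCs it was 29 higher and 7 lower, 47 and 35 without mutant TET2 primed replicate 3, and 12 and 0 without WT TET2 primed replicate 1. In naïve ESCs all 7 fitted differences were above 0, as were 50.4% of those of all tested genes. Dnmt3b had the largest, at 0.79 (standard error 0.28, 95% interval 0.21 to 1.38, limma adjusted p = 0.283), and the values given above for the naïve lines overlapped. Pair by pair, WT exceeded mutant TET2 by 0.69, 0.99 and 0.70 in naïve replicates 1, 2 and 3. Same-numbered naïve libraries deviated together, and when replicate numbers entered the fit as a block the limma adjusted p for Dnmt3b was 0.0519, still above the threshold. Hells followed at 0.54 (95% interval 0.06 to 1.02, limma adjusted p = 0.327), higher with WT TET2 in 3 of 3 pairs. The others lay between 0.31 and 0.36, with limma adjusted p from 0.413 to 0.591. With single libraries left out they ranged from 0.20 to 0.55 for Dnmt3a, 0.18 to 0.58 for Dnmt3l, 0.17 to 0.44 for Uhrf1 and 0.20 to 0.50 for Uhrf2. That of Dnmt1 ranged from -0.0012 to 0.48, the lowest without mutant TET2 naïve replicate 2. Dnmt3a, Dnmt3l, Uhrf1 and Uhrf2 were also higher with WT TET2 in 3 of 3 pairs, by 0.39, 0.45 and 0.24 for Dnmt3a, whereas Dnmt1 was lower in the third pair, at -0.24. Of all tested genes, 22% were higher in 3 of 3 pairs, and the members share these libraries, so their signs are not independent of each other. Without regard to pairs, no member was higher in WT without overlap in naïve ESCs, and 8.78% of tested genes were.

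In primed ESCs, Dnmt1, Uhrf1 and Dnmt3b were higher with WT TET2 in every library, without overlap, as were 11.5% of tested genes. The differences were 0.56 for Dnmt1 (95% interval 0.04 to 1.08, limma adjusted p = 0.279), 0.46 for Uhrf1 (0.10 to 0.82, 0.230) and 0.55 for Dnmt3b (-0.03 to 1.13, 0.332). The exact two-sided permutation p was 0.1 for each, the smallest possible with 3 against 3. For Dnmt3b the difference was 0.36 without mutant TET2 primed replicate 3. Dnmt3l differed by 0.34 (limma adjusted p = 0.509), and by 0.12 without that replicate. Dnmt3a, Uhrf2 and Hells had differences of -0.04, -0.02 and -0.16, with 95% intervals of -0.43 to 0.36, -0.43 to 0.40 and -0.63 to 0.32. Without mutant TET2 primed replicate 3 that of Dnmt3a was -0.11, and those of Uhrf2 and Hells turned to 0.21 and 0.13. The Dnmt3a difference turned to 0.08 without mutant TET2 primed replicate 2 and to 0.01 without WT TET2 primed replicate 2.

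The effect of the rescue was not shown to depend on the medium for any member. The interaction called 0% of tested genes, with 489 of 14185 at an unadjusted p under 0.05 in limma. Limma-voom with the authors' size factors also called 0, with 554 at an unadjusted p under 0.05. Hells had the largest interaction of the 7, at 0.70 (standard error 0.32, 95% interval 0.02 to 1.37, limma adjusted p = 0.976), and it was 0.41 without mutant TET2 primed replicate 3. Without that replicate the interaction of Uhrf1 went from -0.14 to -0.01 and that of Uhrf2 from 0.37 to 0.15.

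**Figure D3:**
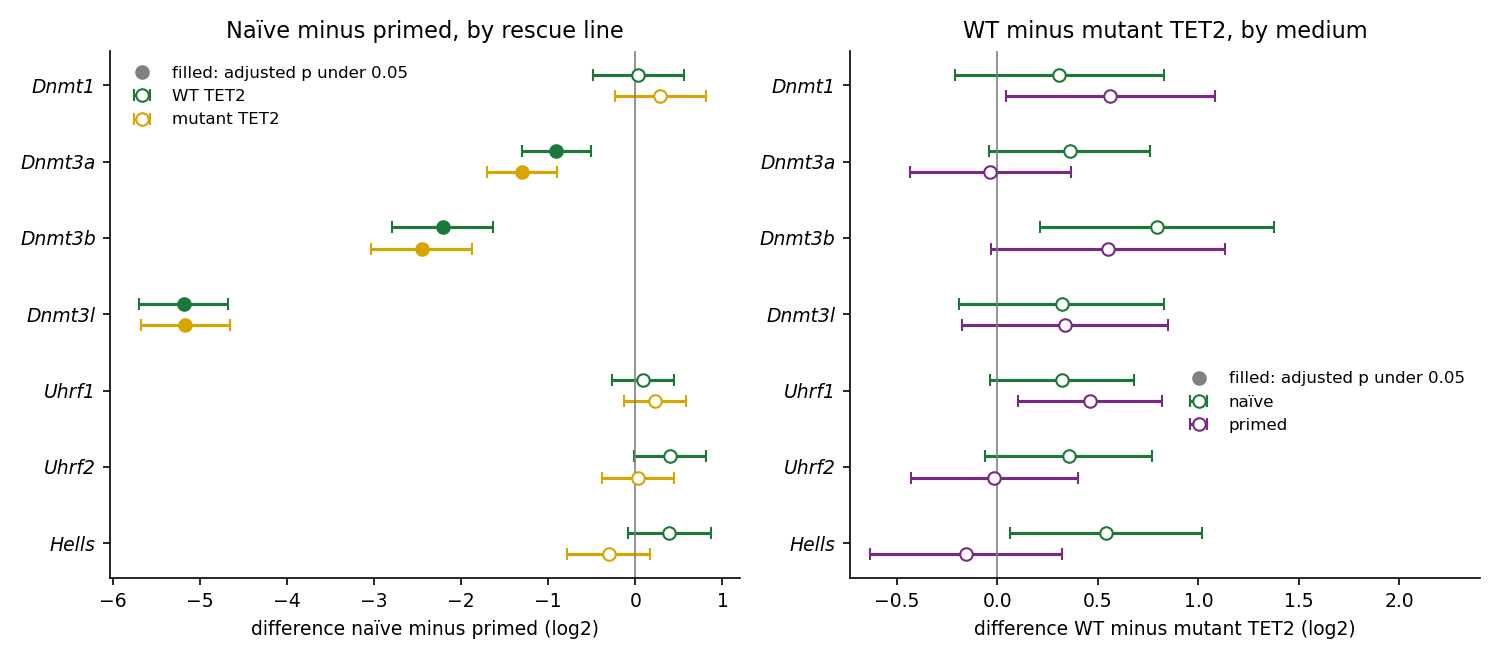
Fitted differences of the 7 genes on the log2 scale (x axis), naïve minus primed in each rescue line (left) and WT minus mutant TET2 in each medium (right). Points are limma estimates from all 12 libraries, bars are 95% intervals, and filled points have an adjusted p under 0.05. On the left Dnmt3a, Dnmt3b and Dnmt3l are filled in both lines, from -0.91 to -5.18, and on the right no point is filled.

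The members also varied among the 6 libraries of a medium, which are 3 from each rescue line. The exact permutation tests treat the 6 as exchangeable although they share lines and, in naïve ESCs, deviate together by replicate number, so r is also given with the mean of each line subtracted, with no test. Over the 42 relations between pairs of members within a medium, 0 passed Benjamini-Hochberg adjustment, and the 8 with p under 0.05 before adjustment are given here. In primed ESCs, Uhrf2 and Hells had a Pearson r of 0.97 (exact permutation p = 0.00278, adjusted 0.117, n = 6), a Spearman rho of 0.94 (exact permutation p = 0.0167), an r of 0.81 without the 2 libraries farthest from the median of Uhrf2 and of 0.999 with line means subtracted, and mutant TET2 primed replicate 3 was the highest for both genes. Dnmt3b and Uhrf1 had an r of 0.91 (exact permutation p = 0.00694, adjusted 0.117, n = 6) and a rho of 0.94 (exact permutation p = 0.0167), with 0.48 without the 2 farthest and 0.79 with line means subtracted. Dnmt1 and Uhrf1, which act together in maintenance, had an r of 0.90 (exact permutation p = 0.0111, adjusted 0.117, n = 6) and a rho of 1 (exact permutation p = 0.00278), with 0.88 without the 2 farthest and 0.67 with line means subtracted. Dnmt3l and Uhrf1 had an r of 0.89 (exact permutation p = 0.0153, adjusted 0.128, n = 6) and a rho of 0.71 (exact permutation p = 0.136). For this pair r was 0.23 without the 2 farthest libraries and 0.91 with line means subtracted. Dnmt3b and Dnmt3l had an r of 0.93 (exact permutation p = 0.0292, adjusted 0.204, n = 6) and a rho of 0.54 (exact permutation p = 0.297), with -0.68 without the 2 farthest and 0.90 with line means subtracted. Without the 2 farthest libraries these relations of Dnmt3l no longer held.

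In naïve ESCs, Dnmt3b and Dnmt3l had an r of 0.90 (exact permutation p = 0.00972, adjusted 0.117, n = 6) and a rho of 0.94 (exact permutation p = 0.0167), with 0.89 without the 2 farthest and 0.92 with line means subtracted. Dnmt3a and Dnmt3b had an r of 0.85 (exact permutation p = 0.0375, adjusted 0.225, n = 6) and a rho of 0.77 (exact permutation p = 0.103), with 0.68 without the 2 farthest and 0.77 with line means subtracted. For Dnmt1 and Uhrf1 r was 0.91 (exact permutation p = 0.0458, adjusted 0.241, n = 6), rho was 0.49 (exact permutation p = 0.356), and r was -0.76 without the 2 farthest, on which it rested, and 0.95 with line means subtracted from all 6.

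The genes most like each member were found by Pearson r over the 12 libraries, which fall into groups by medium. The genes nearest to Dnmt3l were Spry4 (r = 0.998), Dusp6 (0.995) and Esrp1 (0.995). Spry4 and Dusp6 encode feedback inhibitors of FGF-ERK signalling, and Esrp1 an epithelial splicing factor. Spry4 had 346 to 1200 reads in the primed libraries and at most 3 in a naïve one, and Dusp6 had 290 to 722 and at most 21. Nearest to Dnmt3b were Nup50 (0.992), Bend3 (0.991) and L1td1 (0.988), of which Nup50 encodes a nucleoporin and L1td1 an RNA-binding protein of ESCs. L1td1 was lower in naïve ESCs by 2.79 on the log2 scale. Nearest to Dnmt3a were Rsc1a1 (0.986), Ddi2 (0.985) and Vps33a (0.983). Dnmt1 was most like Mcm3 (0.969), a subunit of the replicative helicase, then Gigyf2 (0.954) and Atxn2l (0.949). Uhrf1 was most like Cttn (0.951), Eif4b (0.945) and Smg6 (0.927). For Uhrf2 the nearest were Bmi1 (0.951), Tgfbr1 (0.944) and Erlin2 (0.943), and for Hells they were Stxbp3a (0.972), Xpo1 (0.969) and Vps37a (0.968). The naïve minus primed differences of these last 12 genes lay between 0.05 and 0.23.

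Lists of other genes of the methylation pathway, and of processes tied to it, were read against the same background of 25.4% of genes lower and 26.4% higher in naïve ESCs, where the median difference over all tested genes was 0.00177 on the log2 scale. The list with the lowest median was that of FGF-ERK feedback and immediate target genes, 8 of 8 of which were lower, with a median of -2.87. By line, 8 of 8 were lower with WT TET2 and 7 of 8 with mutant TET2. Of all tested genes, 17.3% and 16.9% were lower in these lines. Etv4, a transcription factor induced by ERK, had 200 to 520 reads in primed libraries and at most 4 in naïve ones. Spry4 and Dusp6 fell by 5.13 and 3.88 on the log2 scale (limma adjusted p = 2.58e-13 and 2.55e-11), and Myc fell by 2.67 (1.30e-08). On the scale of log2 of the normalised count plus 1, which compresses low values less, Spry4 fell by 8.48 and Myc fell by 4.24. Egr1 had 45 to 279 reads in primed and at most 11 in naïve libraries. Without mutant TET2 primed replicate 3 the count was again 8 of 8. In that fit the differences of Etv5, Fos and Spry2 were smaller, at -0.56, -0.65 and -0.83.

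Partners of maintenance at replication forks were mixed, with 4 of 9 higher and 1 lower in naïve ESCs (median 0.07, and 0.15 without mutant TET2 primed replicate 3). Chaf1b rose by 0.81 and Chaf1a fell by 0.66 (limma adjusted p = 9.19e-05 and 0.000209), although both encode subunits of the histone chaperone CAF-1. Cdca7, which recruits HELLS to chromatin, rose by 0.51 (limma adjusted p = 0.000413), and Lig1, which encodes DNA ligase I, by 0.42 (limma adjusted p = 0.00373). S-phase and proliferation genes had 4 of 20 higher and 4 lower, with a median of 0.04. Ccne1 (cyclin E1) fell by 1.22 and Gins2 rose by 0.70 (limma adjusted p = 3.65e-07 and 7.08e-05), while Mcm5 fell by 0.53 and E2f1 rose by 0.60 (limma adjusted p = 0.00041 and 0.000391). Without mutant TET2 primed replicate 3, 7 of the 20 were higher and the median was 0.07.

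Regulators and recruiters of de novo methylation had 3 of 10 higher and 4 lower (median -0.17). Prdm14, a repressor of the de novo genes in ESCs, rose by 1.63 in naïve ESCs (limma adjusted p = 6.36e-08), with 383 to 905 reads in naïve and 108 to 388 in primed libraries. Trim28, the KAP1 corepressor that brings in SETDB1, fell by 1.01, Ehmt1 fell by 0.52 and Whsc1 (Nsd2) rose by 0.66 (limma adjusted p = 9.30e-06, 0.000631 and 0.00013). Of the genes of oxidation and base excision, 1 of 12 was higher and 3 were lower (median 0.01, and -0.01 without mutant TET2 primed replicate 3). Gadd45a fell by 1.74 and Tet2 fell by 1.71 (limma adjusted p = 3.01e-06 and 1.94e-05), and Smug1, a DNA glycosylase, rose by 0.82 (limma adjusted p = 4.51e-05). Tet1 differed by 0.35 (limma adjusted p = 0.112) and Tet3 by -0.06 (0.797). Readers of methylated DNA had 2 of 7 higher and 3 lower (median -0.37), with log2 differences of -1.08 for Mbd3, which belongs to the NuRD complex (limma adjusted p = 3.73e-05), -0.66 for Mbd2 (0.000152) and -0.62 for Mbd1 (0.000774).

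Methyl donor and one-carbon enzymes had 9 of 17 higher and 2 lower in naïve ESCs (median 0.37). Nnmt, which uses methyl groups to modify nicotinamide, had 64 to 291 reads in naïve and at most 9 in primed libraries. Mthfd2 and Tdh, of mitochondrial folate and threonine breakdown, rose by 1.05 and 1.04 (limma adjusted p = 7.16e-06 and 5.65e-07). Mat2a, which makes the methyl donor S-adenosylmethionine, fell by 2.04 (limma adjusted p = 5.10e-05). Of the other cytosine methyltransferases 3 of 4 were in the table, all but Dnmt3c (Gm14490). Among these Nsun2, a methyltransferase of tRNA, fell by 0.32, Nsun6 rose by 0.52 (limma adjusted p = 0.0143 and 0.00868) and Trdmt1, the former Dnmt2, had -0.25 (0.136), and -0.15 without mutant TET2 primed replicate 3. Germline genes with methylated promoters had 6 of 13 tested higher and 3 lower (median 0.37). Dazl and Brdt rose by 2.60 and 2.24 (limma adjusted p = 4.87e-07 and 1.04e-08), Hormad1 by 1.11 (0.000161), and Rhox9 fell by 1.82 (2.82e-06).

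Between the rescue lines, the count was 0 in either direction for each of these lists in both media, except for Tet2 itself in the list of oxidation and base excision.

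**Figure D4:**
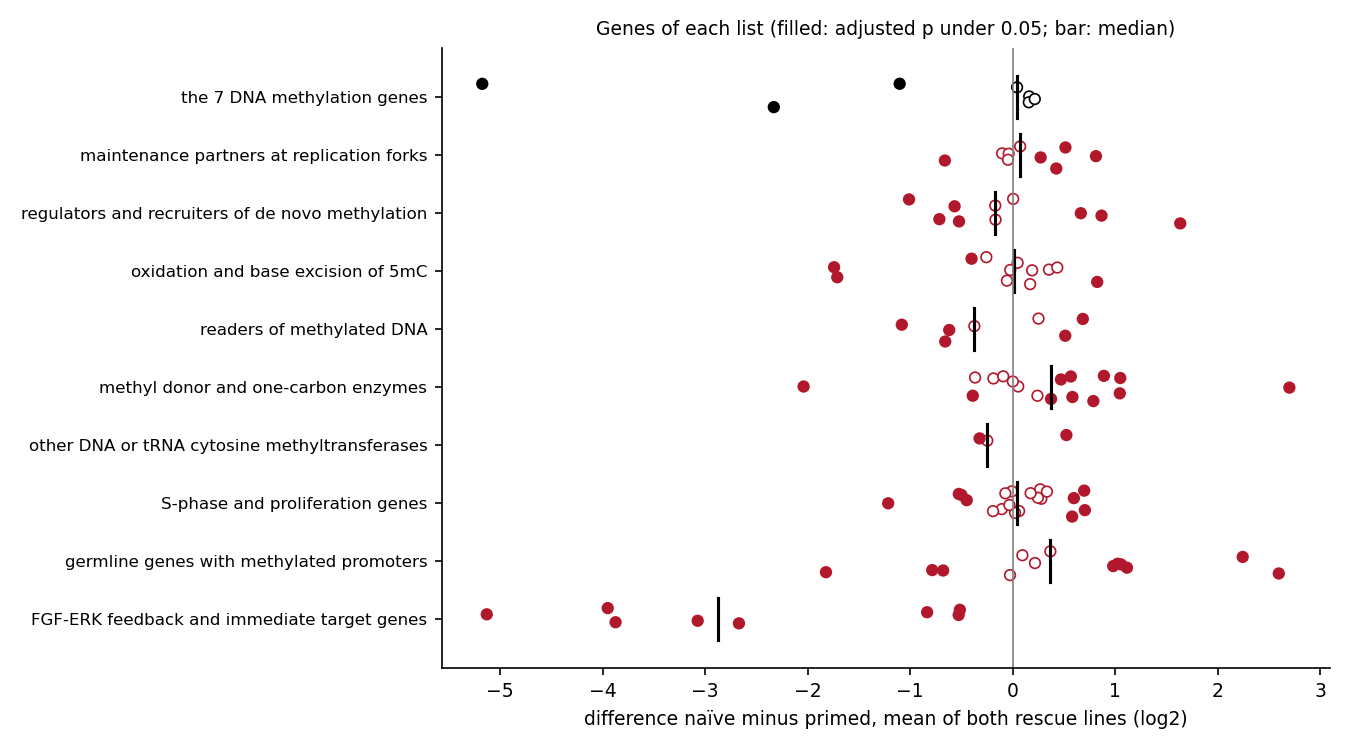
Naïve minus primed difference (log2 scale, mean of both rescue lines, x axis) of the 7 DNA methylation genes (black) and of each tested gene of 9 lists (red), 1 list per row. Filled points have an adjusted p under 0.05 and bars mark medians. All 8 FGF-ERK genes lie below 0 with a median of -2.87, and the other lists have medians between -0.37 and 0.37.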

How the data were processed

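The deposited gene table holds 12 columns of log2-scale values, 1 per library, which the authors made with the variance-stabilising transformation of DESeq2 from read counts per gene. They trimmed reads with Trim Galore 0.3.3 and aligned them to mm9 with TopHat2 2.0.9, placing a read with several equally good positions at random. The gene annotation and the counting tool are not given in the sources used here. The deposited table of repeat classes was not used here. Solving the transformation for the counts yielded whole numbers in 100% of cases (tolerance 0.001) and gave thereby the depth of each library and the reads per gene. Gene positions and lengths came from GENCODE M1 on mm9.

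Genes whose mean exceeded the table's lowest value by 1 or more were tested with limma 3.58.1 in R 4.3.3, with 4 groups, 12 libraries and an intensity trend in the variance. Calls used a Benjamini-Hochberg adjusted p under 0.05 over all 14185 genes. Single values were compared by exact two-sided permutation tests. The fit was also run on simulated data, and no result given here rests on that run. The members, the gene and marker lists and the tests were chosen with earlier results of these data known. Besides the members, the text names up to 4 genes of each list by adjusted p, the 3 genes most like each member, and Setdb1 and Tet2. Genes of a list named beyond these, and the choice to leave out a library by its distance from its group, followed the values. Tables were made in Python 3.11.15 with pandas 2.3.3 and numpy 2.4.6, and figures with matplotlib 3.10.9.

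The reported fit had no replicate block. Replicate numbers paired the libraries of the rescue lines in naïve ESCs, where deviations of same-numbered libraries correlated over genes at 0.586, 0.300 and 0.385, and the block was run as an alternative. The pairing comes from the labels' numbers and these data. The subtraction of line means was added after the relations were seen. Alternatives tried were a stricter filter and none, a fit with no trend in the variance, values centred on the median or quantile-normalised, log2 of the normalised count plus 1, limma-voom on the recovered counts, the replicate block, only the libraries compared, and each library left out.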

Additional observations from a re-analysis of the deposited data

How the results depend on the processing

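The 7 genes in 6 comparisons gave 42 results and 910 values under the alternatives. Of these, 880 kept their direction and their side of the threshold, 0 lost a call, 1 gained a call (Uhrf2 between media without mutant TET2 primed replicate 3, 0.33) and 29 changed sign. All sign changes were of differences that were not called, and the causes were not tested. Under quantile normalization the difference between media was -0.0223 for Hells over both lines and -0.0106 for Dnmt1 with WT TET2, and voom scaled by gene totals gave -0.0190 for the latter. Centring gave -0.00038 for Uhrf2 between media with mutant TET2. Voom scaled by gene totals gave 0.0052 for Dnmt3a and 0.0239 for Uhrf2 between lines in primed ESCs. The interaction of Dnmt3l was 0.0454 on the scale of log2 of the normalised count plus 1 and 0.0167 by voom with the authors' size factors. With single libraries left out, the difference between media ranged from -0.0477 to 0.185 for Hells over both lines, from -0.19 to 0.18 for Dnmt1 and from -0.0022 to 0.137 for Uhrf1 with WT TET2, and from -0.11 to 0.25 for Uhrf2 with mutant TET2. That between lines ranged from -0.0012 to 0.483 for Dnmt1 in naïve ESCs, and from -0.11 to 0.0822 for Dnmt3a, -0.15 to 0.21 for Uhrf2 and -0.34 to 0.13 for Hells in primed ESCs. The interaction ranged from -0.0201 to 0.553 for Dnmt3b and from -0.19 to 0.24 for Dnmt3l.

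The counts of genes called between media stayed within 1.5 times of the reported ones. Between lines in naïve ESCs 13 genes were called higher and 1 lower. Without a filter 8 were higher, with log2 of the normalised count plus 1 they were 6 higher and 0 lower, with only the libraries compared 8 higher, and with quantile normalization 2 lower. Leaving out libraries gave 5 to 17 higher and 0 to 5 lower. In primed ESCs 29 were called higher and 7 lower. With only the libraries compared they were 18 and 0. The number lower was 4 without a filter and by voom with the authors' size factors, 3 by voom with gene totals, 13 after centring, 14 after quantile normalization and 12 with log2 of the normalised count plus 1. Leaving out libraries gave 12 to 47 higher and 0 to 35 lower, the most without mutant TET2 primed replicate 3 (47 and 35). The interaction called 0 to 1 genes lower.

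With the replicate number as a block, 23 genes were called higher and 13 lower between lines in naïve ESCs, where the pairing held. In primed ESCs the numbers did not pair the libraries (correlations of 0.161, -0.0652 and 0.189), nor did they between media, and the block gave 115 higher and 94 lower. The block changed no call of a member.

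The length used moved the levels per length. With the longest coding transcript Dnmt3l was at 273 RPKM in primed ESCs with WT TET2, and in naïve ESCs with mutant TET2 Uhrf2 (17.9) was above Dnmt3b (15.7). Reads are not independent molecules, so read numbers set counting error only. Depth limited Dnmt3l in naïve ESCs most among the members, at 73 reads or more.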
